A study of Mus musculus with 2 samples.

Results

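Imprinted genes are genes that are read mainly from the copy of a single parent. The 38 described here were taken as the rows of 2 deposited gene tables whose identifiers carry the symbols of a list of known mouse imprinted genes, out of 43346 mouse genes in each table, and all 38 had a row in both. The choice of copy is set by DNA methylation laid down in egg or sperm at imprinting control regions, and it is kept through the divisions of the embryo. Many imprinted genes lie in clusters in which protein-coding genes and long noncoding RNAs are read from opposite parental copies under a shared control region. As a family they are known for roles in fetal growth, placenta and the developing brain.

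The study measured RNA of the midbrain of newborn mice (postnatal, age 0 days) of strain B6NCrl, an inbred line of black laboratory mice. A single midbrain was taken from each pup, and 13 pg of its RNA above 200 nt, given as 1 cell-equivalent, was amplified and sequenced for pup 1 (replicate 1) and pup 3 (replicate 2). The material is tissue RNA, although the assay is labelled single-cell RNA-seq, and the labels give 1 donor record for both pups and no sex. Both libraries form a single untreated group, so the comparison made is pup 1 against pup 3, and with 2 pups no exact test could go below p = 0.5. Because the mice are inbred and the tables hold no allele counts, the parental copy of each gene is given here as background knowledge and was not measured.

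Levels are in TPM, which is a count divided by transcript length and scaled to a common total in each library, and genes at 1 TPM or above were taken as detected. The libraries held 26036966 expected counts over mouse genes in pup 1 and 32408632 in pup 3, and a gene with 0 counts may hold up to 3, which was 0.115 CPM in pup 1 and 0.0926 CPM in pup 3. Count ratios are pup 1 over pup 3, scaled by these totals, with an exact 95% interval that covers counting error only. Of the cell type markers, all 6 of neurons, 5 of 6 of radial glia and astrocytes and all 7 of meninges were detected in both pups. Of endothelium 2 of 4 were detected in both and 1 in pup 3 alone, and of mural cells 3 of 4 in both and 1 in pup 1 alone. All 4 of choroid plexus were below detection in both pups. Of 8 midbrain genes, 4 were in both, among them the dopamine enzyme gene Th at 46.9 TPM in pup 1 and 38.5 TPM in pup 3, while the defining genes En1 and En2 were low. En1 had 0.05 TPM in pup 1 and 0.97 TPM in pup 3, and En2 had 0.71 TPM in pup 1 and 2.49 TPM in pup 3. Otx2, a forebrain and midbrain gene, had 40.6 TPM in pup 1 and 0.40 TPM in pup 3, and Pax7, a gene of the dorsal midbrain, had 0.14 TPM in pup 1 and 6.76 TPM in pup 3. In tissue RNA, fewer cells of a type and less RNA per cell cannot be told apart.

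Several of the genes are read from a promoter that itself carries the parental mark. The protein ZFP57 is known in mouse to hold methylation at such regions by binding the 6 letters TGCCGC when methylated. RefSeq promoter windows of GRCm38.p6, 250 bases before to 50 bases after a start, are printed here for 5 members, among those whose level or start site the results turn on. They are in lower case on the gene's strand, with each occurrence of TGCCGC or of its reverse complement GCGGCA in capitals. All 5 printed windows hold a match, so they are not typical of the members. The windows of Ndn, Inpp5f, Gnas, Peg3, Blcap and Ube3a hold none.
Nnat promoter, chr2:157559828-157560127, plus strand: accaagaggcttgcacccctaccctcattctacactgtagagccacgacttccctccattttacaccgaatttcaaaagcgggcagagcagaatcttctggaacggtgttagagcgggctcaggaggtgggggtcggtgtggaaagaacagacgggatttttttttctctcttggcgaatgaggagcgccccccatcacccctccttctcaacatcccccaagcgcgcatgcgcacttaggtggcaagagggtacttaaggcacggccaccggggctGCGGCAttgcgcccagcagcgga
Snrpn promoter, chr7:60005150-60005449, minus strand: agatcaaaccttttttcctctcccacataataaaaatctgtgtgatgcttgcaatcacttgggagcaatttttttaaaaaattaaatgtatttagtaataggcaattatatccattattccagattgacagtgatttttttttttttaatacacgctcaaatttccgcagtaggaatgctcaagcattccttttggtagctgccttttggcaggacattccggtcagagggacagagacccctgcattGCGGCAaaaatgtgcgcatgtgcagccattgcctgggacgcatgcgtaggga
Mest promoter, chr6:30737800-30738099, plus strand: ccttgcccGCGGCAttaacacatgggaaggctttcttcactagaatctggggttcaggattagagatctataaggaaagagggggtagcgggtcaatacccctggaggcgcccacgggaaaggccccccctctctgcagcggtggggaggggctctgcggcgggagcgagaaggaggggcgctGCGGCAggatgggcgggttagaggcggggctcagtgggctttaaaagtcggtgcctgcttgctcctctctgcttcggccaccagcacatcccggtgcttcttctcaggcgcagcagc
Plagl1 promoter, chr10:13090582-13090881, plus strand: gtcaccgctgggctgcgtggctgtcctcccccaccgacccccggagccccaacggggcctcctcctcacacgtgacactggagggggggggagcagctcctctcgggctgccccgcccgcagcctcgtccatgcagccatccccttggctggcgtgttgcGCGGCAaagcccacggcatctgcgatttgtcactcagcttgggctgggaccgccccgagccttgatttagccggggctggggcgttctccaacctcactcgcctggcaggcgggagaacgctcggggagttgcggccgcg
Meg3 promoter, chr12:109540746-109541045, plus strand: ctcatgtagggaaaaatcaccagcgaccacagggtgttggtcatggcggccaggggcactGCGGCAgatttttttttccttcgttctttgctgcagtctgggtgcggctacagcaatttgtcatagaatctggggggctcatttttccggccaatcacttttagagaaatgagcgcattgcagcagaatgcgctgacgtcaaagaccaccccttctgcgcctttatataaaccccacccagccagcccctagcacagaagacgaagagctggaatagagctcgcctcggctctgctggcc
The start of the transcript that leads by share of abundance lies inside the window for Nnat, Plagl1 and Meg3, and just downstream of it for Snrpn. For Mest it lies inside the window in pup 1, and the transcript that led in pup 3 has no start in the annotation used. RefSeq windows were found for 31 of the 38 members. On either strand the 6 letters stood in 12 of 46 member windows, or 26.1%, against 3809 of 32817 windows of all genes, or 11.6%. Member windows held a median of 14.5 CpG dinucleotides, against 7 in all windows, so base composition differs along with the motif count. By parental copy, a match stood in 7 of 23 windows of paternally read genes, in 2 of 8 of maternally read genes and in 3 of 15 of genes whose copy depends on tissue or promoter. A match is a description of the letters and not a measured binding site.

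Of the 38 imprinted genes, 31 were detected in pup 1 and 30 in pup 3. Both libraries shared 25 of them, or 65.8%, while 17.0% of all mouse genes were detected in both. A further 6 were detected in pup 1 alone and 5 in pup 3 alone. Phlda2 and Kcnq1ot1 were below detection in both. Of the 36 detected in either pup, 69.4% were in both, against 60.8% of the 12144 genes detected in either. Together the members held 13672 TPM in pup 1 and 12013 TPM in pup 3, which was 1.43% of the TPM of mouse genes in pup 1 and 1.26% in pup 3. The median over all 38 members, those below detection included, was 28.8 TPM in pup 1 and 42.1 TPM in pup 3. Over mouse genes the median was taken for detected genes only, at 26.5 TPM in pup 1 and 32.2 TPM in pup 3. The member medians are thus set low beside the gene medians by the undetected members. The family ranged from Nnat, among the 28 most abundant genes of either library, to Phlda2, with 0 counts in both.

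**Figure D1:**
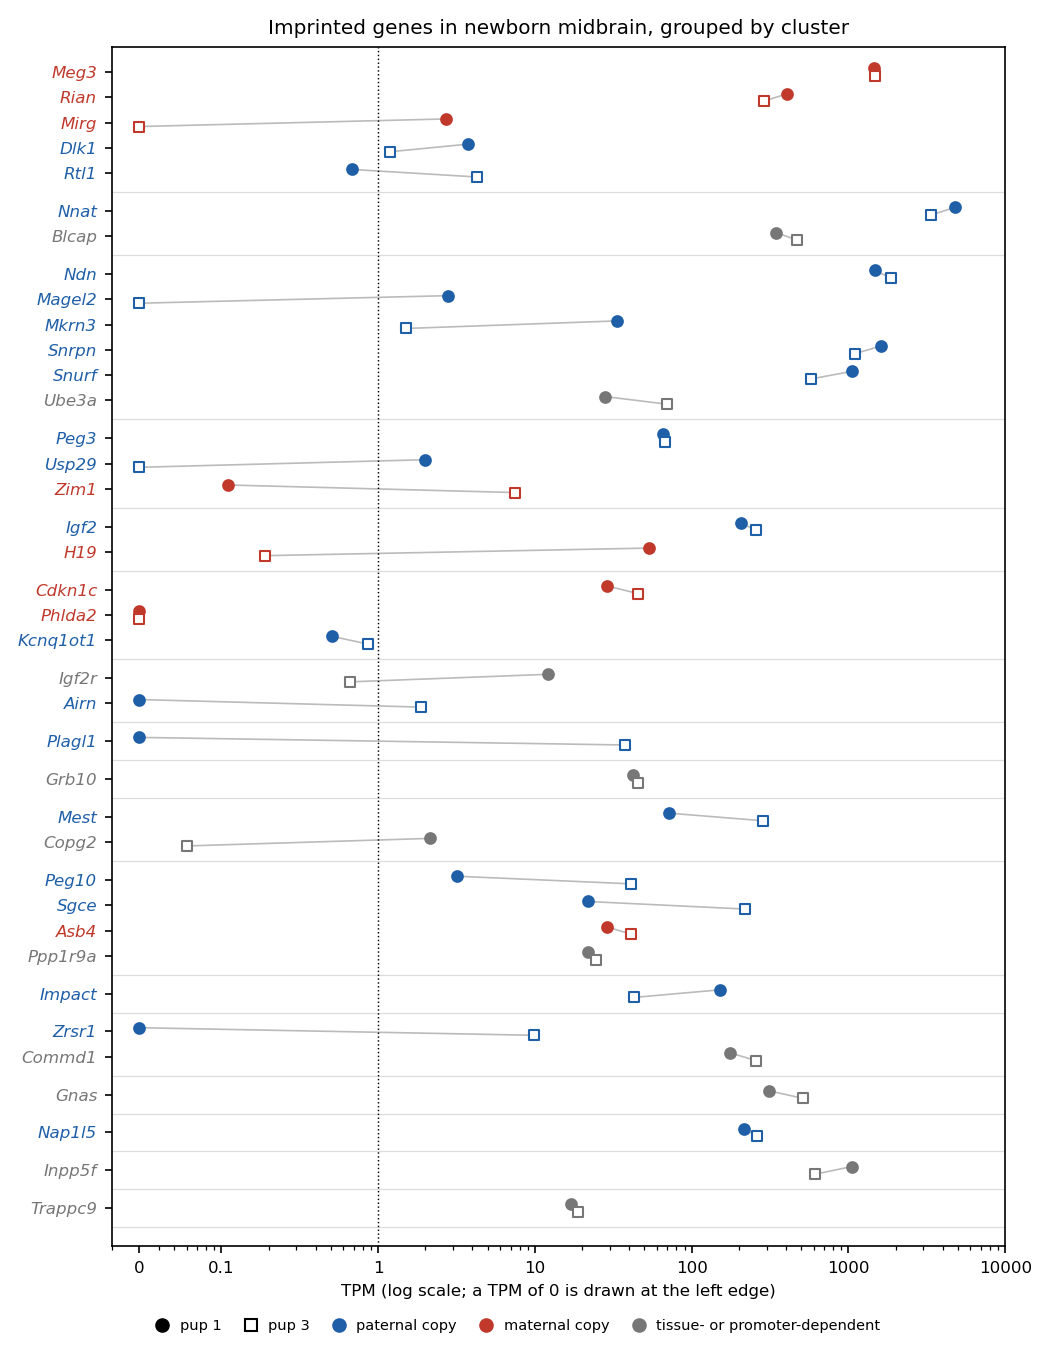
Level of each of the 38 imprinted genes in TPM on a log axis, with pup 1 as filled circles, pup 3 as open squares, and horizontal lines between imprinted clusters. The dotted line marks the detection limit of 1 TPM, and the colour gives the parental copy known from the literature. Nnat, Snrpn, Ndn and Meg3 lie at 1093 TPM or more in both pups, and the long connecting lines belong mostly to genes below 20 TPM in at least 1 pup.

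A gene was listed as over 4-fold apart when the whole 95% interval of its count ratio lay beyond 4-fold, which compares 2 libraries and not conditions. Of the 37 members with a count, 14 were over 4-fold apart, or 37.8%, while percent called over all 14605 genes with a count was 41%. The 14 were split evenly, with 7 higher in pup 1, where the background was 23.1%, and 7 higher in pup 3, where it was 17.9%. The share of members over 4-fold apart was therefore near the background. It followed the level: 9 of 11 members with a mean of 1 to 20 TPM were apart (81.8%, against 70.3% of 5686 genes of that level), 2 of 9 at 20 to 100 TPM (22.2%, against 29.2% of 4364 genes) and 1 of 14 above that (7.14%, against 4.02% of 1667 genes). The median log2 ratio, with counts under 3 taken as 3, was -0.27 over members and 0.27 over genes, and the median size of the ratio was 0.91 over members and 1.54 over genes.

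**Figure D2:**
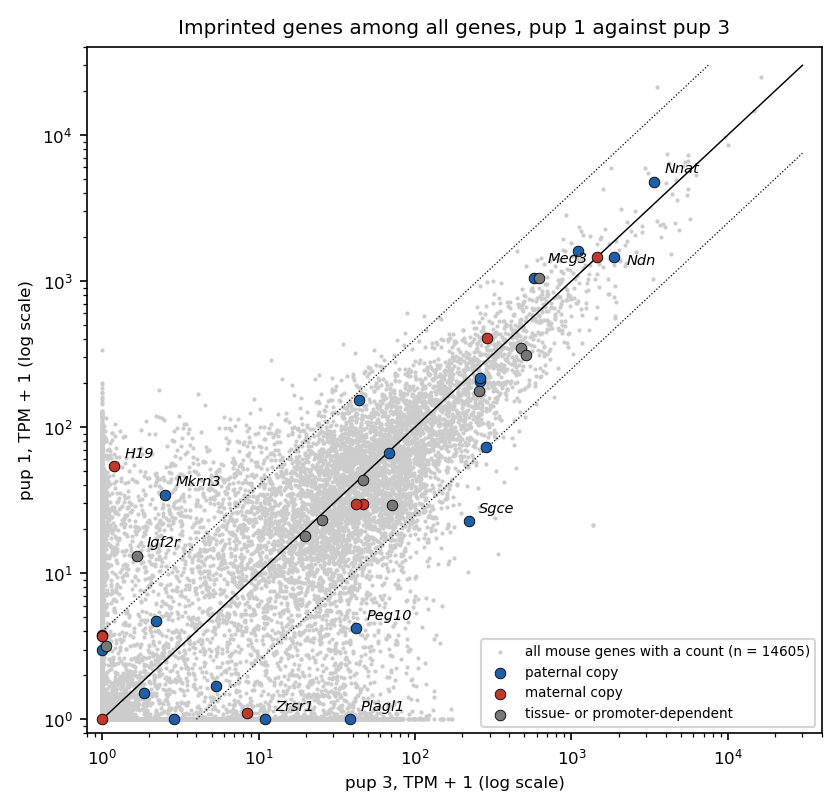
TPM + 1 in pup 1 (vertical, log axis) against pup 3 (horizontal, log axis), with every mouse gene that had a count in grey (n = 14605) and imprinted genes coloured by parental copy. The solid line marks equal levels and the dotted lines a 4-fold difference. H19, Mkrn3 and Igf2r lie far above the upper dotted line, and Plagl1, Zrsr1, Peg10 and Sgce below the lower one.

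Nnat, which encodes neuronatin, a small membrane protein of the endoplasmic reticulum in developing neurons, was the most abundant imprinted gene in both pups. It had 4783 TPM (83321 counts) in pup 1 and 3382 TPM (81082 counts) in pup 3, a mean of 4083 ± 991 TPM (SD, n = 2), which made it the 17th gene by level in pup 1 and the 28th in pup 3. Nnat (ENSMUSG00000067786.12, GRCm38 chr2:157560078-157562522, plus strand) is read from the paternal copy and lies wholly inside an intron of Blcap on the opposite strand. Blcap (chr2:157556362-157571274), a gene of a small conserved protein whose main brain transcript is read mostly from the maternal copy, had 345 TPM (11022 counts) in pup 1 and 472 TPM (19697 counts) in pup 3. The count ratio was 1.28 for Nnat (95% interval 1.27 to 1.29) and 0.697 for Blcap (0.680 to 0.713), so the host was lower in pup 1 while the guest was higher. Within each library Nnat exceeded Blcap by a log2 ratio of 3.79 in pup 1 and 2.84 in pup 3. Its transcripts all started within 1 kb of each other, from the window shown above onwards, and the leading form Nnat-205 held 58.0% of its abundance in pup 1 and 64.7% in pup 3. Nnat-202, with a nearby start, held 36.3% in pup 1 and 28.6% in pup 3. Blcap-202 held 91.7% of Blcap in pup 1 and 89.9% in pup 3. Whether strand was used in counting is not given in the sources used here, so reads of overlapping genes on opposite strands may not be told apart, which applies to 24 of the 38 members.

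In the Snrpn-Ube3a cluster on chromosome 7, whose loss from the paternal copy causes Prader-Willi syndrome in people, the 3 most abundant genes were high in both pups and the intronless genes Magel2 and Mkrn3 were far higher in pup 1. Ndn, which encodes necdin, a MAGE-family protein of postmitotic neurons (ENSMUSG00000033585.4, chr7:62346569-62350262), had 1469 TPM (37194 counts) in pup 1 and 1865 TPM (65960 counts) in pup 3. Snrpn, which encodes the spliceosome protein SmN (ENSMUSG00000102252.1, chr7:59982495-60140219), had 1606 TPM (48395 counts) in pup 1 and 1093 TPM (45821 counts) in pup 3. Snurf (chr7:59995449-60005049), the upstream reading frame of the same transcript, had 1048 TPM (1998 counts) in pup 1 and 577 TPM (1538 counts) in pup 3. Snurf lies wholly within Snrpn on the same strand with an annotated length of 216 bases, so the division of reads between them is uncertain. Both were higher in pup 1 and Ndn was lower in pup 1, all within 2 times by counts, with ratios of 1.31 for Snrpn, 1.62 for Snurf and 0.702 for Ndn.

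Magel2 and Mkrn3 stood apart from their neighbours. Magel2, a MAGE-family ubiquitin ligase adaptor (chr7:62377010-62381640), had 207 counts (2.78 TPM) in pup 1 and 0 counts in pup 3. With 0 taken as 3 counts, Magel2 was 85.9-fold higher in pup 1, and the lower bound of its interval was 69.2. Mkrn3, a makorin ring finger protein that holds back the onset of puberty (chr7:62417593-62420139), had 1334 counts (33.4 TPM) in pup 1 and 84 counts (1.51 TPM) in pup 3. Its ratio was 19.8 (15.8 to 24.9), and the libraries were thus far apart for it while Ndn, on the same stretch of chromosome, was not. Ube3a (chr7:59228750-59311536), the ubiquitin ligase lost in Angelman syndrome, is read from the maternal copy in neurons. It had 28.2 TPM (2295 counts) in pup 1 and 69.8 TPM (7950 counts) in pup 3, a ratio of 0.359 (0.343 to 0.376), lower in pup 1 but within 4-fold. The log2 ratio of Snrpn over Ube3a was 5.78 in pup 1 and 3.95 in pup 3. Snhg14, the paternally read RNA that runs antisense through Ube3a, had 284 TPM in pup 1 and 233 TPM in pup 3, and the annotated genes overlap over 3613 bases.

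The Dlk1-Meg3 cluster on chromosome 12 was read almost wholly as noncoding RNA. Meg3, a long noncoding RNA of the maternal copy (ENSMUSG00000021268.13, chr12:109541001-109571726), had 1462 TPM (57084 counts) in pup 1 and 1466 TPM (78593 counts) in pup 3, the nearest agreement in TPM of any member above 100 TPM. By counts its ratio was 0.904 (0.894 to 0.914). Rian, the maternal noncoding RNA that hosts small nucleolar RNAs (chr12:109603940-109661716), had 406 TPM (9573 counts) in pup 1 and 288 TPM (7875 counts) in pup 3. Mirg, the maternal microRNA host farther downstream (chr12:109729764-109749460), had 32 counts (2.71 TPM) in pup 1 and 0 counts in pup 3. Mirg was 13.3-fold higher in pup 1 with 0 taken as 3 counts, and the lower bound of its interval was 10.2. The order Meg3 over Rian over Mirg, which is also their order along the chromosome, held in both pups, with log2 ratios of Meg3 over Rian of 1.85 in pup 1 and 2.34 in pup 3 and of Rian over Mirg of 6.78 in pup 1 and 8.18 in pup 3.

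The paternal genes of that cluster were low. Dlk1 (chr12:109452823-109463336), a transmembrane protein related to Notch ligands, had 47 counts (3.72 TPM) in pup 1 and 33 counts (1.19 TPM) in pup 3. Rtl1 (chr12:109589193-109600330), a retrotransposon-derived gene, had 69 counts (0.68 TPM) in pup 1 and 613 counts (4.30 TPM) in pup 3, so it was 7.14-fold higher in pup 3 (5.56 to 9.29). Meg3 exceeded Dlk1 by a log2 ratio of 8.28 in pup 1 and 9.39 in pup 3, whereas Dlk1 over Rtl1 was 1.49 in pup 1 and -1.28 in pup 3 and had no common direction. The maternal copy also makes microRNAs from this region. From RefSeq, 25 microRNA hairpins were counted inside members, 1 in Meg3, 3 in Rian, 14 in Mirg and 7 in Rtl1. Mature forms of both miR-1906 and miR-770 lie inside Meg3, so the hairpin count there is too low. Of the 7 in Rtl1, 6 lie on the strand opposite to Rtl1 and can pair with it perfectly, while miR-3071 lies on the strand of Rtl1. The following sequences are mature microRNAs with the seed, bases 2 to 8, in capitals, the 4 from across Rtl1 and then 4 from Mirg, of which miR-453 and miR-496a-5p share the seed GGUUGCC.
miR-127-3p: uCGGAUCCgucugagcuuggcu
miR-433-3p: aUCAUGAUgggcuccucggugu
miR-434-3p: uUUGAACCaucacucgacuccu
miR-136-5p: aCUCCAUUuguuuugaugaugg
miR-134-5p: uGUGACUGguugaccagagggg
miR-410-3p: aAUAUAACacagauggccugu
miR-453: aGGUUGCCucauagugagcuugca
miR-496a-5p: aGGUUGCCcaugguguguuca
Every counted hairpin with a row in the tables, 23 of them, had 0 counts in both pups. Their effective lengths were at most 25 bases and RNA under 200 nt was not kept, so this says nothing of the mature microRNAs.

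In the Igf2-H19 cluster on chromosome 7, Igf2 was high in both pups and H19 in pup 1 alone. Igf2, a fetal growth factor read from the paternal copy (ENSMUSG00000048583.12, chr7:142650766-142666816), had 206 TPM (4706 counts) in pup 1 and 259 TPM (4698 counts) in pup 3. H19, the maternal noncoding RNA that shares its enhancers (ENSMUSG00000000031.11, chr7:142575529-142578143), had 955 counts (53.2 TPM) in pup 1 and 2 counts (0.19 TPM) in pup 3. The count ratio of H19, from the 2 counts of pup 3 as they stand, was 594, with a 95% interval of 164 to 4915, the largest of any member with a count in both pups. The log2 ratio of Igf2 over H19 was 1.93 in pup 1 and 7.77 in pup 3, so Igf2 was the higher in both. By counts Igf2 had a ratio of 1.25 (1.20 to 1.30) although its TPM was lower in pup 1, since its deposited mean transcript length was 1503 bases in pup 1 and 897 bases in pup 3. Igf2 is known to be read from both copies in choroid plexus and leptomeninges. The 7 meningeal markers summed to 2782 TPM in pup 1 and 3828 TPM in pup 3, with Ptgds, the prostaglandin D synthase, at 2555 TPM in pup 1 and 3513 TPM in pup 3 making up most of it. The other markers did not share a direction. Col1a1 had 26.2 TPM in pup 1 and 3.49 TPM in pup 3, and Slc6a13 had 77.9 TPM in pup 1 and 55.8 TPM in pup 3. Igfbp2, Dcn, Lum and Col1a2 were higher in pup 3. Igfbp2 had 1.95 TPM in pup 1 and 50.2 TPM in pup 3, and Dcn had 51.1 TPM in pup 1 and 111 TPM in pup 3. Lum had 18.3 TPM in pup 1 and 33.7 TPM in pup 3, and Col1a2 had 52.3 TPM in pup 1 and 60.9 TPM in pup 3. The 4 choroid plexus markers summed to 0.05 TPM in pup 1 and 0.16 TPM in pup 3, with Kl, Folr1 and Clic6 at 0 in both. The part of meningeal RNA in the Igf2 level was not tested.

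The neighbouring Kcnq1ot1 domain, whose long noncoding RNA silences genes on the paternal copy, was represented by Cdkn1c. Cdkn1c, the maternally read cell cycle inhibitor p57 (chr7:143458339-143461050), had 28.9 TPM (846 counts) in pup 1 and 45.2 TPM (1848 counts) in pup 3. Kcnq1ot1 (chr7:143203458-143296549) itself had 707 counts in pup 1 and 1649 counts in pup 3, but with an annotated length of 84395 bases this was 0.51 TPM in pup 1 and 0.86 TPM in pup 3. It lies wholly within Kcnq1 on the opposite strand, and Kcnq1 had 0 counts in both pups. Phlda2 (chr7:143501545-143503150), a maternal brake on placental growth, had 0 counts in both pups, which allows up to 3 counts in each.

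At the Igf2r-Airn locus on chromosome 17 the libraries gave opposite pictures, each at a low level. Igf2r, the receptor that takes up and clears Igf2 (chr17:12682406-12769664), had 1745 counts (12.2 TPM) in pup 1 and 132 counts (0.66 TPM) in pup 3, a ratio of 16.5 (13.8 to 19.8). Airn (chr17:12741311-12860136), the paternally read antisense RNA that crosses Igf2r, had 0 counts in pup 1 and 32 counts (1.89 TPM) in pup 3. Airn was 8.57-fold higher in pup 3 with 0 taken as 3 counts, and the lower bound of its interval was 6.58. The log2 ratio of Igf2r over Airn was 3.72 in pup 1 and -0.80 in pup 3, and in pup 3 their deposited TPM intervals overlapped. The annotated genes share 28354 bases on opposite strands.

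In the Peg3 domain of proximal chromosome 7, Peg3 was level between the pups in TPM and both its low neighbours were not. Peg3, a paternally read zinc finger gene of brain and placenta (ENSMUSG00000002265.11, chr7:6703892-6730431), had 66.0 TPM (8101 counts) in pup 1 and 67.5 TPM (12152 counts) in pup 3, a mean of 66.7 ± 1.12 TPM (SD, n = 2). By counts its ratio was 0.830 (0.807 to 0.854), lower in pup 1. Usp29 (chr7:6730578-6967219), a deubiquitinase-family gene that is read away from the same promoter region, had 81 counts (1.98 TPM) in pup 1 and 0 counts in pup 3. Usp29 was 33.6-fold higher in pup 1 with 0 taken as 3 counts, and the lower bound of its interval was 26.7. Zim1 (chr7:6671269-6696450), a maternally read zinc finger gene, had 5 counts (0.11 TPM) in pup 1 and 581 counts (7.46 TPM) in pup 3, 93.4-fold higher in pup 3 (39.8 to 289). Peg3 exceeded both in each library.

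On proximal chromosome 6, Peg10 and Sgce, which are read in opposite directions from a shared paternal promoter, were both over 4-fold higher in pup 3. Peg10, a retrotransposon-derived gene required for the mouse placenta (chr6:4747306-4760517), had 83 counts (3.20 TPM) in pup 1 and 1504 counts (41.0 TPM) in pup 3, 14.6-fold higher in pup 3 (11.7 to 18.4). Sgce, which encodes epsilon-sarcoglycan and is mutated in myoclonus dystonia (chr6:4674350-4747207), had 579 counts (21.8 TPM) in pup 1 and 6886 counts (220 TPM) in pup 3, 9.55-fold higher in pup 3 (8.78 to 10.4). Sgce was the member with the highest mean level among the 14 that were over 4-fold apart. The ratio between them was nearly equal in the libraries, with a log2 ratio of Sgce over Peg10 of 2.44 in pup 1 and 2.39 in pup 3.

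The other members of that cluster, maternally read Asb4 and tissue-dependent Ppp1r9a, differed less between the pups. Asb4 (chr6:5383386-5433022), an ankyrin repeat and SOCS box protein, had 28.6 TPM (1435 counts) in pup 1 and 41.2 TPM (2964 counts) in pup 3. Ppp1r9a (chr6:4902917-5165661), which encodes the actin-binding synaptic protein neurabin, had 21.9 TPM (1879 counts) in pup 1 and 24.5 TPM (5262 counts) in pup 3. By counts the ratio was 0.603 for Asb4 and 0.444 for Ppp1r9a, both lower in pup 1. For Ppp1r9a the count ratio departs from the TPM, since the deposited mean transcript length was 5353 bases in pup 1 and 9547 bases in pup 3. Ppp1r9a-205, a short form, held 68.9% of its abundance in pup 1 and 0% in pup 3.

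At the Mest locus on chromosome 6, paternally read Mest stood above its neighbour Copg2 in both pups, with a wide gap between pups. Mest, a paternally read hydrolase-family gene of growing tissue (chr6:30723547-30748465), had 2395 counts (71.5 TPM) in pup 1 and 8002 counts (283 TPM) in pup 3, a ratio of 0.373 (0.356 to 0.390). Copg2 (chr6:30747554-30896794), a coatomer subunit gene that meets Mest tail to tail, had 135 counts (2.15 TPM) in pup 1 and 5 counts (0.06 TPM) in pup 3, a ratio of 33.6 (14.1 to 105). The log2 ratio of Mest over Copg2 was thus 4.52 in pup 1 and 8.07 in pup 3. The annotated ends overlap by 912 bases on opposite strands.

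Among members outside the larger clusters, Plagl1 differed most between the libraries. Plagl1, a paternally read zinc finger regulator of growth genes (ENSMUSG00000019817.14, chr10:13060504-13131694), had 0 counts in pup 1 and 3671 counts (37.6 TPM) in pup 3. Plagl1 was 983-fold higher in pup 3 with 0 taken as 3 counts, and the lower bound of its interval was 799. Zrsr1 (chr11:22972005-22976496), a paternally read splicing-factor gene that lies inside an intron of Commd1 on the opposite strand, had 0 counts in pup 1 and 719 counts (9.92 TPM) in pup 3. By the same floor Zrsr1 was 193-fold higher in pup 3, and the lower bound of its interval was 156. Its host Commd1 (chr11:22896136-22982382), a regulator of copper export, had 177 TPM (1278 counts) in pup 1 and 256 TPM (2629 counts) in pup 3, a ratio of 0.605 (0.566 to 0.647). Reads for the guest were thus missing in a library that held the host.

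The remaining members were detected in both pups and stayed within 4-fold. Inpp5f, a phosphoinositide phosphatase gene (ENSMUSG00000042105.14, chr7:128611328-128696425), had 1050.0 TPM (44338 counts) in pup 1 and 615 TPM (35501 counts) in pup 3. Gnas, the gene of the stimulatory G protein subunit (chr2:174284320-174346744), had 312 TPM (7964 counts) in pup 1 and 515 TPM (17898 counts) in pup 3. Nap1l5 (chr6:58905233-58907076), a paternally read intronless gene of a nucleosome assembly protein family, lies inside Herc3 and had 215 TPM (6284 counts) in pup 1 and 260 TPM (10642 counts) in pup 3. Herc3, its host on the opposite strand, had 6.52 TPM in pup 1 and 12.8 TPM in pup 3, so the guest was far more abundant than the host. Impact (chr18:12955852-12992950), a paternally read regulator of translation in neurons, had 151 TPM (8215 counts) in pup 1 and 42.9 TPM (3260 counts) in pup 3, a ratio of 3.14 (3.01 to 3.27). It was the widest gap among these members. Grb10 (chr11:11930508-12038683), an adaptor that damps insulin and growth factor receptors, had 42.2 TPM (2734 counts) in pup 1 and 45.4 TPM (2126 counts) in pup 3. By counts Grb10 had a ratio of 1.60 (1.51 to 1.69), higher in pup 1 although its TPM was lower there. Its deposited mean transcript length was 4078 bases in pup 1 and 2154 bases in pup 3. Trappc9 (chr15:72589620-73061204), a vesicle-tethering subunit, had 16.9 TPM in pup 1 and 18.7 TPM in pup 3.

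By parental copy, paternally read genes, the largest class, held most of the member TPM in both pups. The 20 paternally read genes summed to 9684 TPM in pup 1 and 8148 TPM in pup 3, a mean of 8916 ± 1086 TPM (SD, n = 2), which was 70.8% of member TPM in pup 1 and 67.8% in pup 3. Nnat alone held 4783 TPM of this in pup 1 and 3382 TPM in pup 3. The median paternal gene stood at 27.6 TPM in pup 1 and 42.0 TPM in pup 3. For maternal genes the median was 28.8 TPM in pup 1 and 24.3 TPM in pup 3. The 8 maternally read genes summed to 1982 TPM in pup 1 and 1849 TPM in pup 3 (1915 ± 93.8), and Meg3 made up most of that in both. The 10 genes whose copy depends on tissue or promoter summed to 2007 TPM in pup 1 and 2016 TPM in pup 3 (2011 ± 6.75). Detection in both pups covered 13 of the 20 paternal, 4 of the 8 maternal and 8 of the 10 dependent genes. Of the 9 paternal genes over 4-fold apart, 3 were higher in pup 1 and 6 in pup 3. Of the 3 maternal ones, 2 were higher in pup 1 and 1 in pup 3, and both dependent ones were higher in pup 1. Over all genes with a count, 23.1% were higher in pup 1 and 17.9% in pup 3. The counts by class are small, and no difference between the classes was tested. By cluster, the Nnat locus held 37.5% of member TPM in pup 1 and 32.1% in pup 3, the Snrpn-Ube3a cluster 30.6% in pup 1 and 30.0% in pup 3, and the Dlk1-Meg3 cluster 13.7% in pup 1 and 14.7% in pup 3.

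Levels within a library can be set side by side because TPM is per length. Of 17 pairs of genes from a shared cluster, 15 had the same sign in both pups with their deposited TPM intervals apart in each. The exceptions were Dlk1 over Rtl1 and Igf2r over Airn. Pairs differed in how much the libraries agreed: the mean log2 ratio was 2.42 ± 0.03 for Sgce over Peg10, 4.47 ± 0.23 for Cdkn1c over Kcnq1ot1 and 0.77 ± 0.22 for Snrpn over Snurf, but 4.85 ± 4.13 for Igf2 over H19 and 6.30 ± 2.50 for Mest over Copg2 (SD, n = 2 each). Each of these last pairs holds a gene with 5 counts or fewer in pup 3. Ratios use TPM + 1, which understates the gap where a gene is low. The deposited intervals need not contain the TPM itself. Nnat in pup 1 had 4783 TPM and an interval of 4594 to 4660. Copg2 in pup 3 had 0.06 TPM and an interval of 0.249 to 1.77. Plagl1, which is in no pair, had 0 TPM in pup 1 and an interval of 2.22 to 5.44.

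**Figure D3:**
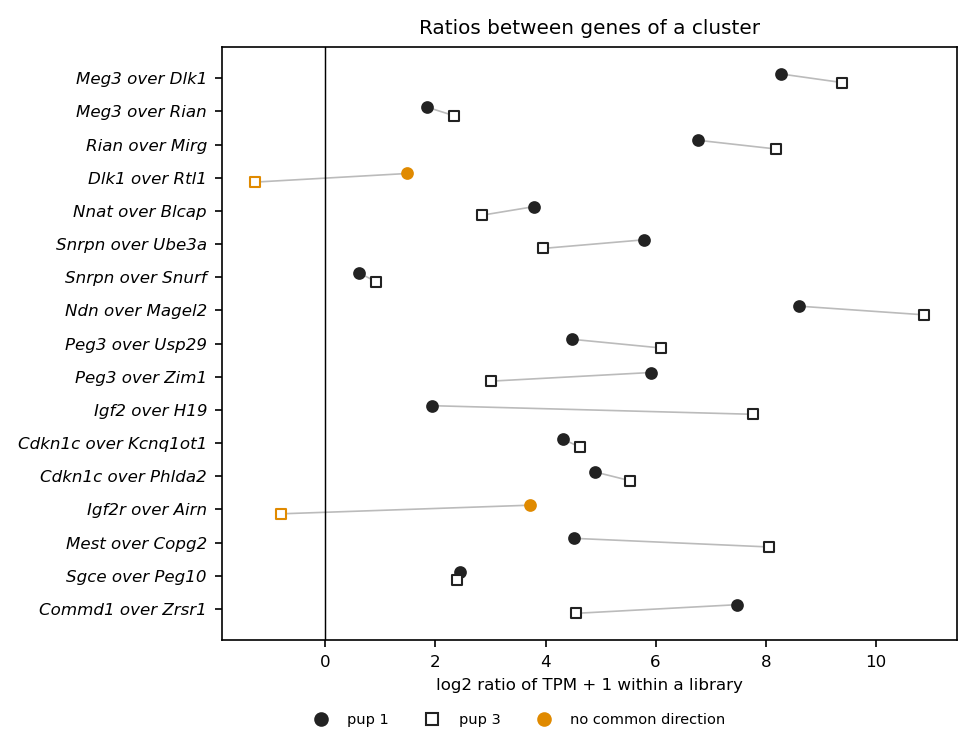
Log2 ratio of TPM + 1 between genes of a cluster within each library, with pup 1 as filled circles and pup 3 as open squares. Ratios right of the vertical line at 0 mean that the gene named before "over" was higher. The 15 black pairs have a common direction, and the 2 orange pairs, Dlk1 over Rtl1 and Igf2r over Airn, cross 0.

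For several members the promoter decides the parental copy, so the transcript tables bear on which copy could have been read. Inpp5f is the clearest case. Its full-length transcript is read from both copies, while a short brain transcript from an internal promoter is read from the paternal copy. Transcripts starting 76.2 kb downstream of the most upstream start held 97.8% of Inpp5f in pup 1 and 99.8% in pup 3, led by Inpp5f-208 at 90.8% in pup 1 and 96.3% in pup 3. The most upstream start held 1.71% in pup 1 and 0.15% in pup 3. By expected counts the internal start held 42724 in pup 1 and 35398 in pup 3, and the most upstream start 1356 in pup 1 and 96.3 in pup 3. In the deposited division of reads, the internal start therefore accounted for nearly all of Inpp5f in each library. The parental copy itself was not measured.

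Gnas has several promoters with different parental rules. The start of the stimulatory G protein itself, 45.7 kb from the most upstream start and read from both copies in most tissues, held 69.1% in pup 1 and 90.6% in pup 3. The start 43.25 kb in, where the paternally read exon 1A transcript begins, held 22.3% in pup 1 and 3.43% in pup 3. The most upstream start, that of the maternally read Nesp transcript, held 7.31% in pup 1 and 5.92% in pup 3. The paternally read extra-large form, starting 13.5 kb in, held 0.68% in pup 1 and 0% in pup 3. Nespas, the paternal antisense RNA at the upstream start, had 0 counts in pup 1 and 252 counts in pup 3. The main start was thus the same in both pups and its share was lower in pup 1.

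Snrpn was read mainly from its downstream start, just past the window shown above, which held 89.1% in pup 1 and 95.3% in pup 3, while the start 135 kb upstream held 10.9% in pup 1 and 4.69% in pup 3. Meg3 was spread over 3 groups of starts, which begin at the most upstream start and at 1.02 kb and 3.50 kb from it. The most upstream group, in the window shown above, held 59.9% in pup 1 and 37.4% in pup 3. All 3671 Plagl1 counts of pup 3 fell on transcripts from the start 30.2 kb downstream of the most upstream one, where the window shown above lies.

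Grb10, Igf2 and Mest had different leading transcripts in the libraries by share of abundance. By expected counts, which are not per length, only Igf2 of these 3 did, since Grb10-201 and Mest-211 led in both pups. Grb10 is known to be read from the maternal copy at its major upstream promoter in most tissues and from the paternal copy at internal promoters in neurons. Grb10-201, whose start lies 1.28 kb from the most upstream one at the major promoter, held 73.4% in pup 1 and 21.8% in pup 3. Starts 12.0 kb from the most upstream one, near the neuronal promoters, held 17.3% in pup 1 and 13.2% in pup 3. Grb10-202, which starts farther inside the gene at 68.0 kb, held 7.85% in pup 1 and 45.02% in pup 3. Igf2-208, a fragment from the end of the gene, held 78.1% of Igf2 in pup 1 and 7.11% in pup 3, and Igf2-203, from the most upstream start, held 0% in pup 1 and 70.1% in pup 3. Mest-211, from the promoter shown above, held 76.7% of Mest in pup 1 and 29.5% in pup 3. The rest of Mest lay mostly on a short transcript of 836 bases with no entry in the GENCODE M21 annotation used for starts, at 23.3% in pup 1 and 69.7% in pup 3.

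**Figure D4:**
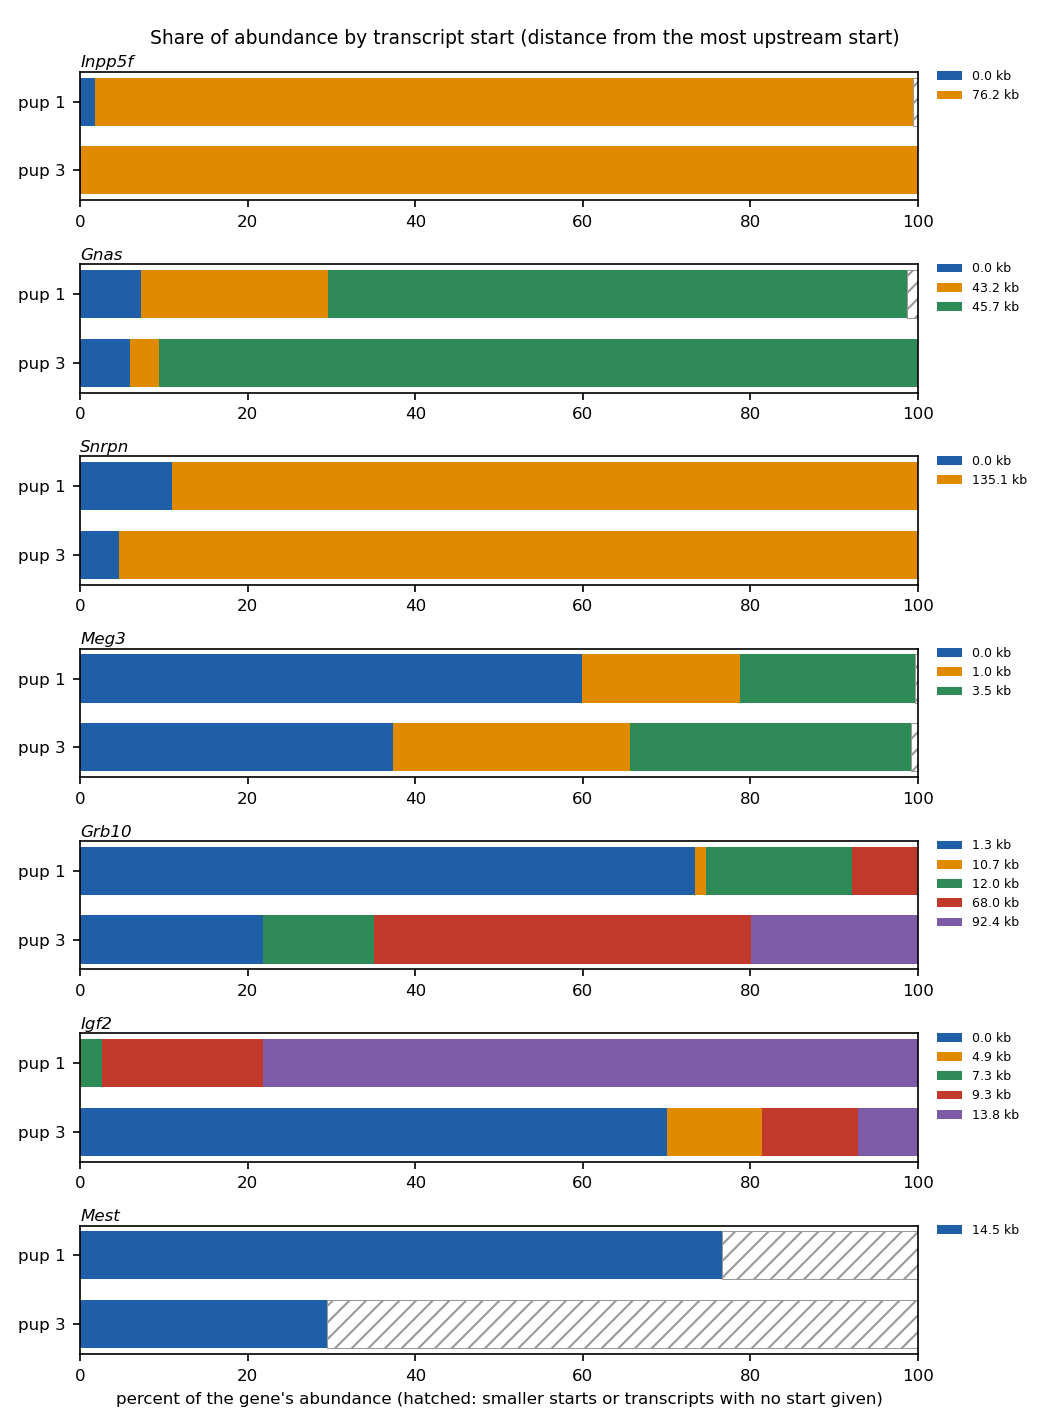
Share of each gene's abundance by transcript start for 7 imprinted genes, as stacked bars in percent with pup 1 above pup 3. Each colour is a group of starts in which neighbours lie at most 1 kb apart, named by its distance from the gene's most upstream annotated start, and hatching marks smaller starts or transcripts with no start given. Inpp5f, Gnas and Snrpn keep their main start in both pups, while Grb10, Igf2 and Mest do not keep the same leading share.

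Leading transcripts could be compared for 19 members, those with 2 or more transcripts and at least 50 counts per library, and 13 had the same one in both pups, while Igf2, Grb10, Mest, Sgce, Ppp1r9a and Trappc9 did not. By expected counts 15 of the 19 had the same leader, and those that did not were Rian, Igf2, Sgce and Commd1. For Sgce, Sgce-203 held 85.9% in pup 1 and 9.46% in pup 3, where Sgce-206 led with 44.96%, and all of these start at the promoter shared with Peg10. For Trappc9, Trappc9-202 held 87.7% in pup 1 and 49.6% in pup 3, where Trappc9-201 led narrowly with 50.4%. For Ppp1r9a, Ppp1r9a-201 held 31.1% in pup 1 and all of the abundance in pup 3. Sgce-205 held 0% in pup 1 and 37.2% in pup 3.

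The members with a common leader split into those with a dominant form and those with several. A dominant form held over 78% in both pups for Cdkn1c, Igf2r, Asb4, Peg10, Blcap, Inpp5f, Snrpn and Peg3, the last with Peg3-201 at 78.4% in pup 1 and 82.2% in pup 3. The Peg10 leader, with 94.4% in pup 1 and 93.7% in pup 3, has no entry in GENCODE M21. Rian was divided more evenly, with Rian-213 at 35.3% in pup 1 and 42.3% in pup 3 and Rian-202 at 34.4% in pup 1 and 13.3% in pup 3. Rian-211 held 10.5% in pup 1 and 23.99% in pup 3. Meg3-205, the form from the window shown above, led Meg3 with 48.5% in pup 1 and 33.1% in pup 3, ahead of Meg3-203 with 17.4% in pup 1 and 28.3% in pup 3. In expected counts, which are not per length, Meg3-209 led instead, with 30514 in pup 1 and 51722 in pup 3. Meg3-209 is a form of 14548 bases that starts outside that window. Commd1-202 held 46.6% in pup 1 and 37.5% in pup 3, and Commd1-203 held 33.1% in pup 1 and 36.8% in pup 3. Commd1-205, a retained-intron form, held 19.96% in pup 1 and 25.5% in pup 3. Gnas-208 led Gnas with 52.9% in pup 1 and 63.0% in pup 3, followed in pup 3 by Gnas-206, with 15.04% in pup 1 and 27.5% in pup 3. Gnas-221, the exon 1A form, held 22.2% in pup 1 and 1.06% in pup 3. The shares come from the authors' division of reads among overlapping transcripts and carry the error of that estimate.

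Of 10 genes that keep imprint methylation, 8 were detected in both pups. Atrx, a chromatin remodeller, had 211 TPM in pup 1 and 147 TPM in pup 3. Zfp57 had 100.02 TPM in pup 1 and 203 TPM in pup 3. Trim28, the corepressor that ZFP57 recruits, was over 4-fold apart, with 103 TPM in pup 1 and 7.34 TPM in pup 3. The maintenance methyltransferase gene Dnmt1 had 39.1 TPM in pup 1 and 66.3 TPM in pup 3, and the insulator gene Ctcf had 30.1 TPM in pup 1 and 33.1 TPM in pup 3. Uhrf1, the partner that brings Dnmt1 to newly copied DNA, had 1 count in each pup, and Dppa3, which protects imprints in the zygote, had 0 in both.

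Of 37 further imprinted genes of the mouse, 34 had a row, 12 were detected in both pups, 4 in pup 1 alone, 2 in pup 3 alone and 16 in neither. Among the 12, the highest were Cd81, a tetraspanin at the edge of the Kcnq1ot1 domain, with 790 TPM in pup 1 and 501 TPM in pup 3, and Snhg14, given above. Bcl2l1, an inhibitor of cell death with a mild paternal bias in brain, had 278 TPM in pup 1 and 73.8 TPM in pup 3. Of the 19 with a count, 8 were over 4-fold apart, 4 in each direction, near the 41% of all genes with a count, among them the enzyme gene Ddc of dopamine synthesis with 6.88 TPM in pup 1 and 38.6 TPM in pup 3. The 15 at 0 counts in both pups include genes known to be imprinted in placenta, such as Ascl2, Slc22a2 and Slc22a3.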

How the data were processed

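The 38 members, their parental classes, the gene pairs and the other lists were chosen with earlier results of these data known. Per the file headers, reads were placed on mm10 with GENCODE M4, and a gene and a transcript table were deposited per library. No source used here names the aligner or the quantification program, and whether counting used strand is likewise not given. The deposited expected counts divide reads that match several genes, and they were rounded before counting intervals were taken. The deposited TPM values are scaled over all rows of a table, with tRNA rows and spike-ins included. The deposited FPKM values, posterior mean counts and posterior mean TPM entered alternatives only. Transcript and start shares are the deposited percent of each gene's abundance per transcript, and the deposited bounds of TPM were used for gene pairs.

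Symbols came from a table of gene names matched on gene identifiers, and coordinates and transcript starts from GENCODE M21 on GRCm38, which holds 236 of the 240 member transcripts. Promoter windows and microRNAs came from RefSeq tables of GRCm38.p6. Nothing separates technical from biological spread, because each pup has 1 library, and amplified reads are not independent molecules. The count ratio was scaled by each library's total over mouse genes and given an exact (Clopper-Pearson) 95% interval, and counts under 3 were taken as 3 for its size, except that H19 is given from its counts as they stand. The rule was tested on simulated counts. Those held counting error only, so they do not show how the rule behaves on amplified reads. Members with a mean of 20 TPM or more, or over 4-fold apart, were named with their values, and transcripts with at least 20% of such a member. No test between conditions was made. Alternatives covered the detection limit, scaling with edgeR 4.0.16 and DESeq2 1.42.0 factors, the fold limit, filters on low counts, the pseudocount, the parental assignment and each pup left out. The tools were R 4.3.3, Python 3.11.15, matplotlib 3.10.9, pandas 2.3.3, scipy 1.17.1 and numpy 2.4.6.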

Additional observations from a re-analysis of the deposited data

How the results depend on the processing

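Of 39 alternatives, 33 stayed within a set tolerance of the main value, although many of these values did change. The tolerance was a fold limit for counts of members or pairs and the SD over the pups for sums. Over 4-fold differences numbered 14 under edgeR's TMM scaling, DESeq2's size factors and posterior mean counts. At a 2-fold limit 18 members were listed, and 55.2% of 14605 genes. At a mean of 20 TPM or more, 3 of 23 members and 22.3% of 6031 genes were listed, against 41% of all genes with a count. The share listed was thus lower at that level for members and for all genes. Detection in both pups ranged from 22 members at 10 TPM to 30 at 0.1 TPM, and by expected counts 16 pairs had a common direction. Assigned to the copy read in brain, the maternal sum moved to 2637 TPM and that of the dependent genes to 413.0 TPM, since 9 of the dependent genes changed class. Rescaled to genes outside the mitochondrial genome, these sums were 2125 TPM and 2231 TPM, and from posterior mean TPM the dependent sum was 1961 TPM. Leaving out each pup in turn gave 30 to 31 detected members, 16 to 17 pairs, and sums of 8148 to 9684 TPM for paternal, 1849 to 1982 TPM for maternal and 2007 to 2016 TPM for dependent genes. A sum from a single pup always lies within the SD of the pair, so for the sums this check could not fail. Leaders by expected counts were the same in 15 members and differed for Rian, Igf2, Sgce and Commd1. No paired analysis was possible because both libraries form a single group. Depth limits the low members: a gene at 0 counts may hold up to 3.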
